A study of Mus musculus with 2 samples.

Results

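The miR-7 family was described in the adrenal gland of the mouse from the 3 genes Mir7b, Mir7-1 and Mir7-2, chosen by gene symbol among the 2202 miRNA genes of the deposited tables. Small RNA below 30 nucleotides was sequenced by microRNA-seq from 2 samples of adrenal gland of female B6CASTF1/J mice aged 25 days, 1 library from each. B6CASTF1/J is a first-generation hybrid of the laboratory strain C57BL/6J and the wild-derived strain CAST/EiJ, and no treatment or other allele is named in the labels. In the labels each sample has its own animal number, but 1 donor identifier stands for both. Whether they are separate animals is not settled, so a difference between these 2 samples may be technical. The p-values of the exact binomial test below measure only departure from counting error. Those of edgeR's exact test use a spread estimated from the same 2 samples. With 1 group there is no contrast of conditions, and each comparison below is between genes or between the 2 libraries.

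A miRNA is cut from a hairpin precursor, whose 5p and 3p arms can each give a mature strand, and it finds its target mRNAs mainly through the seed, bases 2 to 8 from its 5′ end. The 5p strand of miR-7 is an ancient miRNA, conserved between insects and mammals and known from neuroendocrine tissue such as the pituitary, the hypothalamus and the pancreatic islets, where it represses among others genes of growth factor signalling. In brain it is bound by the circular RNA Cdr1as and degraded under the direction of the long noncoding RNA Cyrano. The adrenal gland joins a steroid-producing cortex to a medulla of chromaffin cells, which are neuroendocrine cells of neural crest origin.

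The sequences set what could be counted for each gene, and they are given here 5′ to 3′ from RefSeq (build GRCm38.p6, the assembly also called mm10), with the seed in capitals.
miR-7a-5p, from Mir7-1 and Mir7-2: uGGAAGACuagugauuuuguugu
miR-7b-5p, from Mir7b: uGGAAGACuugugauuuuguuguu
miR-7a-1-3p, from Mir7-1: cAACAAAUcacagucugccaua
miR-7a-2-3p, from Mir7-2: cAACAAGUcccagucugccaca
miR-7b-3p, from Mir7b: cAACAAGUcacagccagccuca

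All 3 genes carry the 5p seed GGAAGAC, and no other gene of the 1005 hairpins in the RefSeq table gives a mature strand with it. The 5p strand of Mir7-1 is identical to that of Mir7-2 over its 23 bases. Against it, miR-7b-5p differs at 1 of 23 bases, A10U, counted from the 5′ end with the base of miR-7a-5p first, which lies outside the seed. The 3p strands differ more. Between miR-7a-1-3p and miR-7a-2-3p 3 of 22 bases differ (A7G, A10C and U21C), and the first of these changes the seed. The 3p strands of Mir7-2 and Mir7b share the seed AACAAGU and differ at 4 of 22 bases, while AACAAAU, the seed of miR-7a-1-3p, is carried by no other mature strand of the table.

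The hairpins show which reads can be placed at 1 gene, and the mature strands are in capitals.
Mir7b: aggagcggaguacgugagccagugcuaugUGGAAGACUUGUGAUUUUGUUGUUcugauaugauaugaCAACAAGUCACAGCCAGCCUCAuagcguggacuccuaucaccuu
Mir7-1: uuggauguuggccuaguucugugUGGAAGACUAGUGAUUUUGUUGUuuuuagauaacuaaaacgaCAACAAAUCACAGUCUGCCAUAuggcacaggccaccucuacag
Mir7-2: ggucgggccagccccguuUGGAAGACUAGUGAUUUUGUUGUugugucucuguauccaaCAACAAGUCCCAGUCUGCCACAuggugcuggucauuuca

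The longest stretch that Mir7-1 and Mir7-2 have in common is 24 bases, the mature 5p strand and the base after it. A read inside that stretch lies in both hairpins and belongs to those mapped to several places, which are in no gene count. A 22-base read of the 5p strand that starts at its first base is therefore counted for neither gene, and a read within the 2 hairpins had to be 25 bases long, or to reach outside the stretch, to be told apart. Of the possible 22-base reads, 3 of 87 in Mir7-1 and 3 of 76 in Mir7-2 lie in both, and none of 90 in Mir7b lies in another hairpin. The longest stretch that Mir7b shares with either of the others is 14 bases. Among 141767 GENCODE M21 transcripts, searched on both strands for exact matches, miR-7a-5p was found at Mir7-1 and Mir7-2 only and the other 4 mature sequences each at its own gene only. Introns and intergenic sequence were not searched. Reads that match the reference exactly thus enter the counts of Mir7-1 and Mir7-2 only from the 3p arm or as longer or shifted reads, not as the 5p strand itself, and the files do not separate the arms. The counting of reads with a mismatch is not given in the sources used here, so whether reads that differ from miR-7b-5p at 1 base are in the count of Mir7b was not tested.

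**Figure D1:**
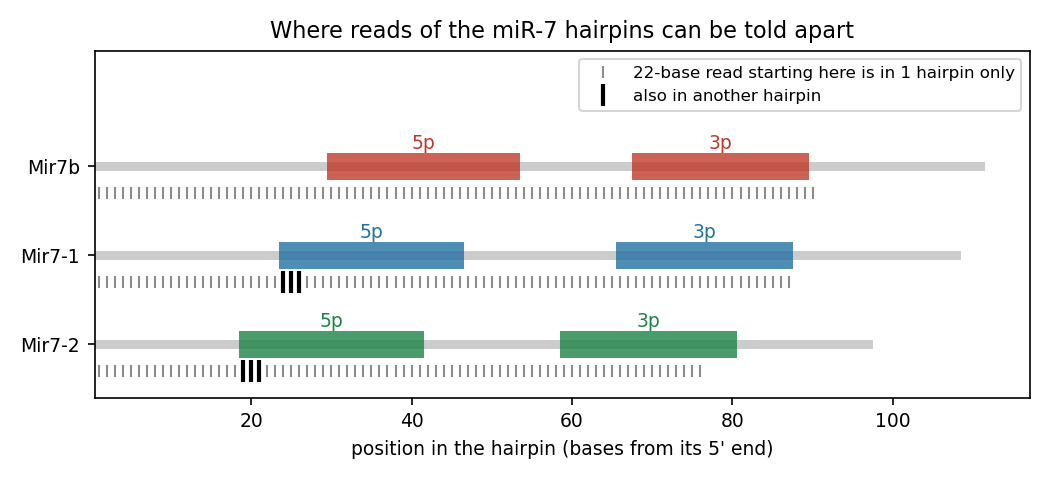
The horizontal axis gives the position in each hairpin in bases from its 5′ end, the coloured boxes are the mature strands of the 5p and 3p arms, and each tick is a possible first base of a 22-base read. Black ticks mark reads that also lie in another hairpin, which are the 3 at the start of the 5p strand of Mir7-1 and the 3 at that of Mir7-2, while Mir7b has none.

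The genes lie at separate loci, all given in mm10. Mir7b (ENSMUSG00000065491.1) is at chr17:56242988-56243098 on the plus strand, in no other annotated gene, 183 bases after the long noncoding RNA gene AC026385.1 on the same strand and 13712 bases before Fem1a. Mir7-1 (ENSMUSG00000065434.1) is at chr13:58392779-58392886 on the minus strand, in an intron of Hnrnpk, which encodes a widely expressed RNA-binding protein and is read in the same direction. Mir7-2 (ENSMUSG00000065609.1) is at chr7:78888277-78888373 on the plus strand, in no other annotated gene and 7481 bases before Aen, a nuclease gene.

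On the strand of miRNA genes lay 2244073 of the 7938596 reads of library 1 and 3912280 of the 11132685 reads of library 2. Reads mapped to several places made up 28.4% of library 1 and 27.5% of library 2. Levels are given as CPM, the count of each gene as a proportion of all such miRNA reads in the library. A read is a whole small RNA, so levels were not divided by gene length. Intervals cover counting error only, and even that incompletely, since no molecular identifiers mark PCR copies.

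Most of the uniquely placed reads of the family came from Mir7b. It had 8799 reads in library 1, against 21687 in library 2. These were 3921 CPM (95% exact Poisson interval 3839 to 4004) and 5543 CPM (5470 to 5618), or 4732 ± 1147 CPM (SD, n = 2). Mir7-1 had 587 and 1312 reads, or 262 CPM (241 to 284) in library 1 and 335 CPM (317 to 354) in library 2, with a mean of 298 ± 52.2 CPM (SD, n = 2). Mir7-2 had 103 and 407 reads, or 45.9 CPM (37.5 to 55.7) in library 1 and 104 CPM (94.2 to 115) in library 2, with a mean of 75.0 ± 41.1 CPM (SD, n = 2). The order Mir7b, Mir7-1, Mir7-2 held in both libraries, and the ranges of the 3 genes did not overlap. Each gene was higher in library 2. No read lay on the strand opposite to any of them in either library.

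**Figure D2:**
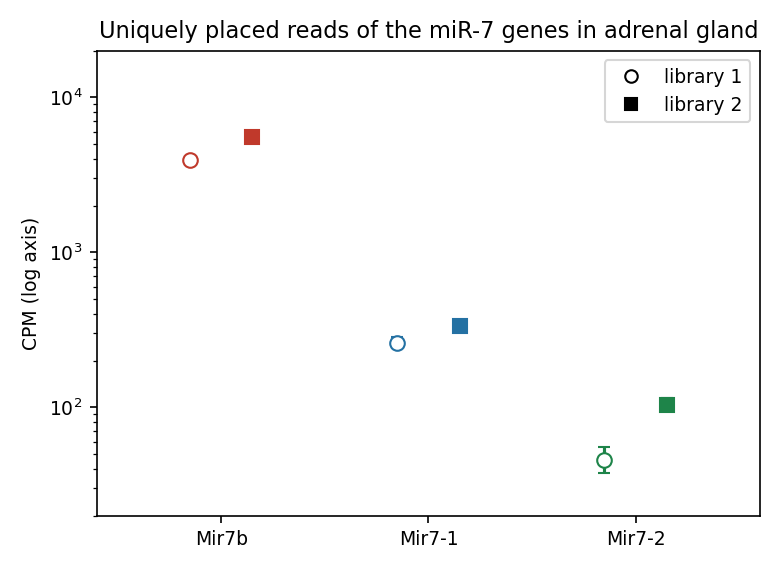
The level of each miR-7 gene is plotted in CPM on a log axis, with an open circle for library 1, a filled square for library 2 and bars for the 95% exact Poisson interval of the count, most of which are smaller than the symbols. Mir7b lies at 3921 and 5543 CPM, far above Mir7-1 at 262 and 335 CPM and Mir7-2 at 45.9 and 104 CPM.

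Within each library, where no scaling between libraries enters, Mir7b had 12.8 times the reads of Mir7-1 and Mir7-2 together in library 1 (95% exact binomial interval 11.8 to 13.8) and 12.6 times in library 2 (12.01 to 13.3). This was 92.7% of the family's reads in both libraries. The mean fold was 12.7 ± 0.0963 (SD, n = 2). The proportion of the 2 genes with an identical 5p strand differed between the libraries beyond counting error. Mir7-1 had 5.70 times the reads of Mir7-2 in library 1 (4.62 to 7.10) and 3.22 times in library 2 (2.88 to 3.61), and these intervals do not overlap. The folds describe uniquely placed reads. How many reads of miR-7a-5p are among the 2252189 and 3064114 reads mapped to several places cannot be told from the tables, so the folds are not ratios of miR-7b to miR-7a. Those reads outnumbered all reads of the family 237 times in library 1 and 131 times in library 2.

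Among all 337 miRNA genes with 10 or more reads in each library, called detected here, Mir7b was in place 36 by mean CPM (39 in library 1 and 33 in library 2) and stood above 89.3% of them. Its mean was 30.3 times that of the median detected gene, 156 CPM. Mir7-1 was in place 129 and Mir7-2 in place 198, the latter below the median gene. Just above Mir7b in this order was Mirlet7f-2, a let-7 gene, with 5058 ± 1411 CPM, and just below it Mir130a with 4623 ± 700 CPM (SD, n = 2). Neither differed from Mir7b beyond the spread of the libraries. The ranges over the 2 libraries overlapped that of Mir7b for 12 detected genes, while 30 genes were above it and 294 below it in both libraries. Mir7-1 lay between Mir18, with 299.7 ± 31.9 CPM, and Mir183, with 289 ± 56.5 CPM (SD, n = 2), and 37 genes overlapped its range. Mir7-2 lay between Mir32, with 75.9 ± 23.5 CPM, and Mir665, with 74.5 ± 20.7 CPM (SD, n = 2), and 58 genes overlapped its range.

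**Figure D3:**
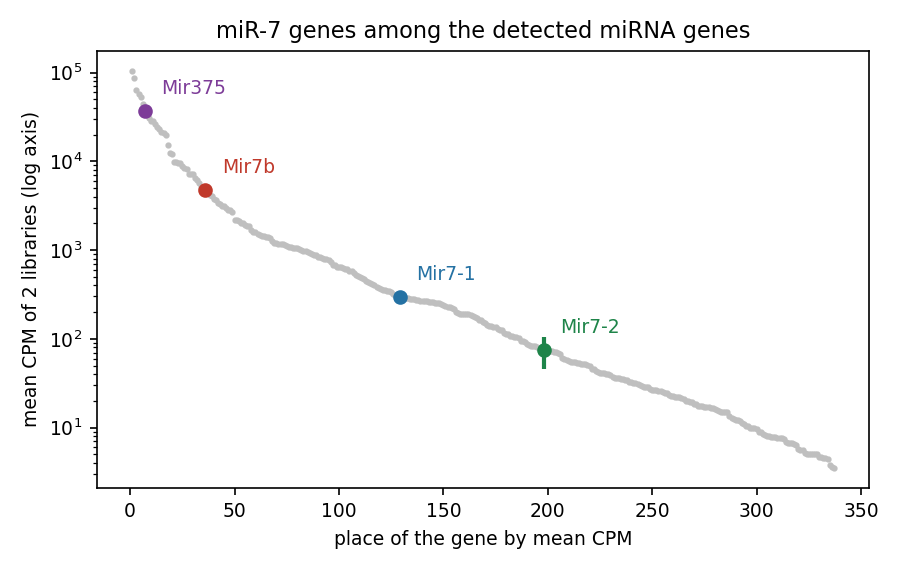
Each grey point is 1 of the 337 detected miRNA genes, with its place by mean CPM on the horizontal axis and its mean CPM on a log vertical axis, and vertical lines on the coloured genes span their 2 libraries. Mir7b in place 36 lies below Mir375 and well above Mir7-1 in place 129 and Mir7-2 in place 198.

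By Euclidean distance of log2 CPM over the 2 libraries, the 5 genes most like Mir7b were Mir130a (distance 0.14), Mir541 (0.39), Mir28a (0.52), Mir99b (0.58) and Mir29a (0.60). Mir130a had 4128 CPM in library 1 and 5118 CPM in library 2, Mir541 3974 and 4223 CPM, Mir28a 3638 and 3891 CPM, Mir99b 3441 and 8089 CPM, and Mir29a 3665 CPM in both. A likeness over 2 libraries rests on the level far more than on any pattern.

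The miRNA genes were also grouped by whether their mature strands are carried by another miRNA gene of the tables, which 1022 gene rows with a matched mature sequence allowed. Mir7b is among 928 genes with no shared strand, of which 261 (28.1%) were detected. Mir7-1 and Mir7-2 are among 57 genes with some strands shared and some their own, of which 40 (70.2%) were detected. Those 40 had a median level of 55.1 CPM, against 196 CPM for detected genes with no shared strand. By mean CPM Mir7-1 was in place 9 and Mir7-2 in place 19 of the 40. Of the 37 genes with all strands shared, 4 (10.8%) were detected. The groups differ in which miRNAs they hold as well as in copies, and these cannot be told apart here.

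A seed shared by genes with only strands of their own and by 2 or more genes with an identical strand occurred in 20 cases, of which 12 had 10 or more reads on each side in each library. In 10 of the 12 the genes of unique sequence had more reads than the copied genes in both libraries. The mean fold of the 2 libraries ran from 0.529 to 398, with a median of 28.2, and the miR-7 family was in place 9 from the top by it. The upper end rests on library 2, since Mir26b had 38.9 times the reads of the Mir26a genes in library 1 and 757 times in library 2, and in library 1 alone the highest fold was 89.5, that of Mir107. Between the libraries the fold of the miR-7 family changed by -0.02 on the log2 scale, the smallest change of the 12. The counting intervals of its folds were 11.8 to 13.8 in library 1 and 12.01 to 13.3 in library 2. Within its copied genes, the reads of Mir7-1 over those of Mir7-2 were 5.70 in library 1 and 3.22 in library 2. The median absolute change of the 12 was 0.42. The let-7 genes enter 2 of the 12 cases, 1 by each arm. The counts do not separate the arms, so these 2 folds are not folds of the strands that share the seed. Mir98, Mirlet7b and Mirlet7c-2 are counted in both. The copied genes are undercounted in all 12 cases, to an unknown extent. Some genes are missing from their cases, such as Mir30d from that of Mir30a, so the folds cover only part of some families.

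**Figure D4:**
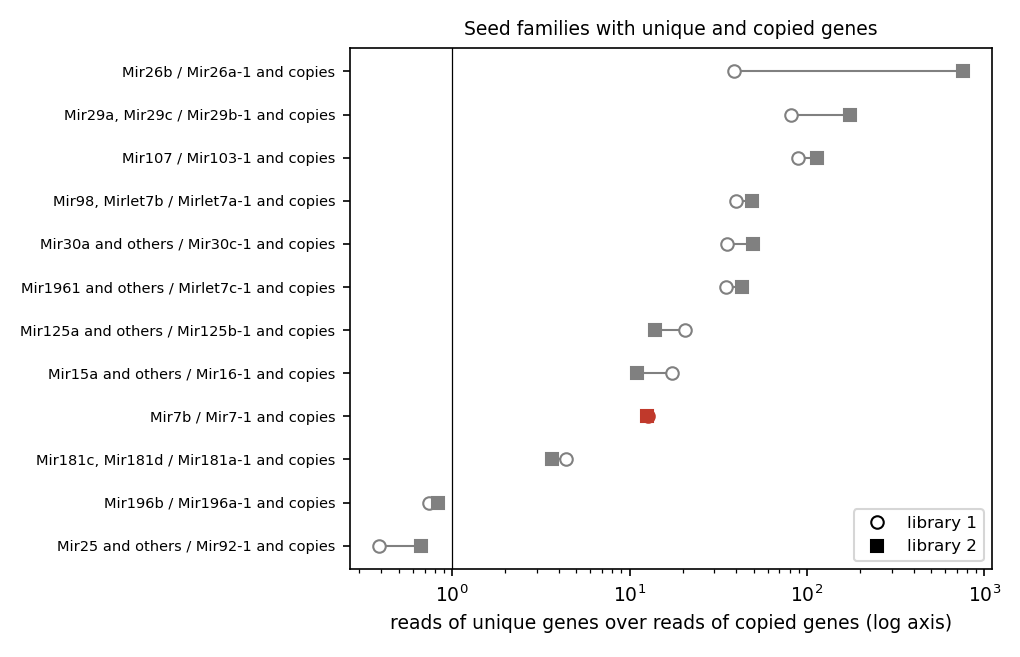
For each of 12 seed families the horizontal log axis gives the reads of genes with only unique mature strands over the reads of genes with an identical strand elsewhere, with an open circle for library 1 and a filled square for library 2, and labels name unique genes before the slash and a copied gene after it. The miR-7 family, in red, lies at 12.8 and 12.6, where the symbols cover each other, in place 9 from the top.

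The reads of all 3 genes were higher in library 2 than counting error allows. Scaled with edgeR's TMM factors, Mir7b was 1.501-fold higher in library 2 (log2 ratio 0.59, 95% interval 0.55 to 0.62). Mir7-1 was 1.36-fold higher (log2 ratio 0.44, 0.30 to 0.59) and Mir7-2 2.40-fold higher (log2 ratio 1.26, 0.95 to 1.59). The two-sided exact binomial test, which compares these 2 libraries and not conditions, called all 3 with a Benjamini-Hochberg adjusted p of 5.31e-237 for Mir7b, 9.43e-10 for Mir7-1 and 4.86e-17 for Mir7-2. Of 411 genes tested, 29.4% were called higher in library 2 and 58.4% in either direction, so such a call sets no gene much apart. When a fold of at least 1.5 was also asked for, Mir7b, right at that limit, and Mir7-2 were called higher, against 15.1% of all genes tested. An absolute log2 ratio above that of the gene was seen for 41.4% of the tested genes in the case of Mir7b, for 56.0% in that of Mir7-1 and for 10.9% in that of Mir7-2.

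None of the 3 differences exceeded the spread that these libraries show over all genes. With edgeR's exact test and a common dispersion estimated from both libraries (biological coefficient of variation 0.387), the unadjusted p was 0.468 for Mir7b, 0.583 for Mir7-1 and 0.128 for Mir7-2, and the adjusted p was 1 for each. That test called 5 of 411 genes (1.22%), with 12 at an unadjusted p under 0.05. Its dispersion comes from the same 2 libraries that it compares.

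Judged on counting error alone, Mir7-2 differed more between the libraries than Mir7b or Mir7-1. The intervals here leave out the spread that these libraries show over all genes. The log2 ratio of Mir7-2 was above that of Mir7b by 0.68 (95% counting interval 0.36 to 0.99) and above that of Mir7-1 by 0.82 (0.48 to 1.16), and these differences need no scaling. That of Mir7b was above that of Mir7-1 by 0.14, with an interval that includes 0 (-0.0032 to 0.29).

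**Figure D5:**
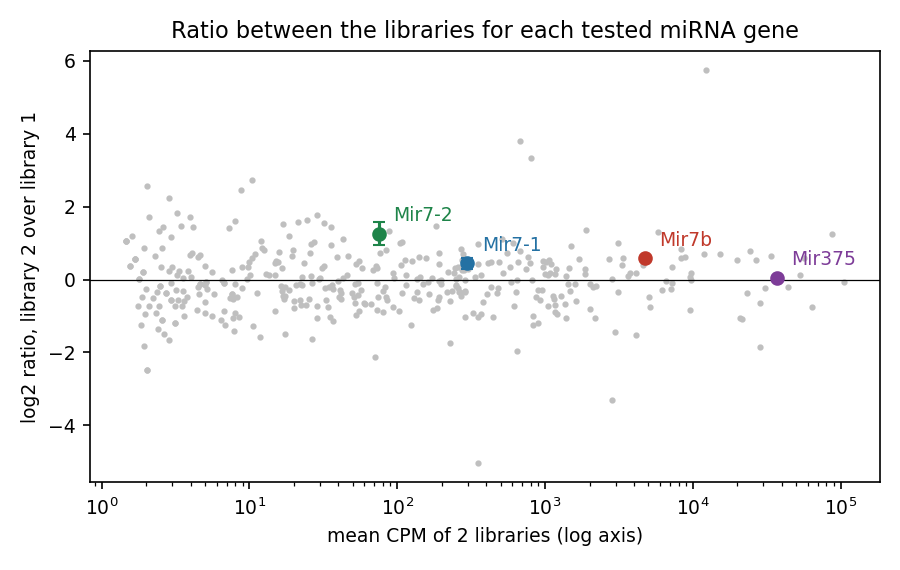
Each grey point is 1 of 411 tested miRNA genes, with its mean CPM on a log horizontal axis and the log2 ratio of library 2 over library 1 on the vertical axis, and bars on the miR-7 genes are 95% counting intervals. The miR-7 genes lie above 0, at 0.59, 0.44 and 1.26, inside the cloud of all genes, and Mir375 lies near 0.

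Mir375, known as a miRNA of endocrine cells and taken here as the marker of chromaffin and endocrine cells, had 37574 CPM in library 1 and 36561 CPM in library 2. Its reads were 9.58 times those of Mir7b in library 1 (9.37 to 9.80) and 6.60 times in library 2 (6.50 to 6.69). The log2 ratio of Mir375 was 0.05, and its sign turned with scaling by library size alone. Genes known from neuroendocrine and neural cells, Mir375 among them, were taken as a list of 29 symbols without the miR-7 genes. Of the 29, 26 are annotated, 18 were detected and 19 were tested. Of the 19, 9 were called higher in library 2, Mir375 among them, 4 in library 1 and 6 not at all in the exact binomial test. Over all genes tested, 29.4% were called higher in library 2 and 29% in library 1. The median log2 ratio of the list was 0.26, against -0.07 over all 411 genes tested. Its most abundant members after Mir375 were Mir335 (log2 ratio 0.58), Mir132 (-1.19) and Mir182 (0.49). Mir132 forms a cAMP-responsive pair with Mir212 (0.06). Mir182 belongs to the sensory and endocrine miR-183 cluster, with Mir183 (-0.32) and Mir96 (0.63). Mir335 had 6843 and 9662 CPM in libraries 1 and 2, above Mir7b in both. Mir132 had 1270 and 524 CPM and Mir182 561 and 744 CPM, both below Mir7b. The genes Mir9-1, Mir9-2, Mir9-3, Mir124a-1, Mir124a-2 and Mir124a-3, of miRNAs abundant in neurons, had at most 1 read in a library. Reads of a strand carried by several genes are in no gene count. Low counts of genes numbered as copies thus do not show that a miRNA is absent.

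Markers of other cell types differed between the same libraries. The 2 red blood cell genes had 633 CPM in library 1 and 25693 CPM in library 2, and the endothelial Mir126a had 53763 and 121007 CPM. The hepatocyte gene Mir122 had 5185 and 491 CPM. The 5 smooth muscle and fibroblast genes summed to 28927 and 41797 CPM, but their members went different ways, with log2 ratios of 0.66 for Mir143, -0.02 for Mir145a and -0.71 for Mir214. The 4 leukocyte genes summed to 1088 and 913 CPM, with log2 ratios of 0.85 for Mir142, 0.06 for Mir155, -0.92 for Mir150 and -2.12 for Mir223. The 8 genes of epithelium and kidney had 168 and 126 CPM, and none of the 7 striated muscle genes was detected, at 4.46 and 1.28 CPM in sum. Genes numbered as copies, such as Mir1a-1 and Mir1a-2, lose the reads that the copies share, so their low counts do not show absence. The part of these markers in the higher level of the miR-7 genes in library 2 was not tested. In whole gland, more miR-7 per cell and more cells that hold it cannot be told apart.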

How the data were processed

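The authors deposited 1 table of raw read counts per miRNA gene for each library, mapped to mm10 per the labels and counted on GENCODE M21 per the text deposited with the tables. The sources used here name no aligner, counter or trimming. The second of 3 unlabelled count columns was taken as reads on the strand of the gene, from the layout and the values. Rows without a gene were set aside. They held, for library 1 and library 2, 33.8% and 27.8% as unmapped, 28.4% and 27.5% as mapped to several places, and 9.57% and 9.53% as lying in no miRNA gene.

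All gene identifiers were matched to GENCODE M21. Of 1005 RefSeq hairpins (GRCm38.p6), 972 matched 1 gene row by overlap on the same strand, the 3 miR-7 genes among them. Genes with 10 or more reads summed were compared between the libraries, given their sum, by an exact binomial test (two-sided), with edgeR 4.0.16 TMM effective library sizes, adjusted by Benjamini and Hochberg at 0.05. The log2 ratios had 0.5 read added to each count. The procedure was tested on simulated counts from a Poisson distribution, without spread between libraries beyond counting error. That setting cannot show how the binomial calls behave with the spread of the real libraries. DESeq2 1.42.0 size factors were an alternative. Python 3.11.15, scipy 1.17.1, statsmodels 0.14.6 and R 4.3.3 were used.

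The members, lists and tests were chosen with earlier results of these data known. Named genes are the members, the 5 genes most like Mir7b, the neighbours of each member in level, the 4 most abundant of the neuroendocrine list, the nearest annotated genes and carriers of the same seed. Cell type markers come from a list. The comparison of seed families was added after values were seen. So was the naming of Mir26b, Mir107, the Mir9 and Mir124a genes, Mir7j, Mir7k and the genes nearest to Mir7-1 and Mir7-2. The same holds for Mir30d, Mir486 and the partners of Mir132 and Mir182.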

Additional observations from a re-analysis of the deposited data

How the results depend on the processing

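No paired analysis was possible because the 2 libraries form a single group. The direction of Mir7b, Mir7-1 and Mir7-2 held under all 6 alternatives for each, with log2 ratios from 0.50 to 0.75, 0.36 to 0.61 and 1.18 to 1.43. Their binomial calls held under the other 5 but not with edgeR's exact test and a common dispersion (log2 ratios 0.59, 0.44 and 1.27, adjusted p = 1 for each). Over all reads of a library the mean levels were 1528, 95.9 and 24.8 CPM, and in the unstranded column Mir7-1 had 364 CPM, where the same reads are divided by fewer. Of 411 genes, 240 were called. The number was 129 with a fold of 1.5 required and 5 with the common dispersion. Of the 240, 50.4% were higher in library 2, against 42.9% with library size alone and 61.7% of 222 with no filter, which shifted log2 ratios by 0.17. Signs near 0 of genes beside the members also turned. With library size alone these were Mir375 (-0.039), Mir29a (-0.00017), Mir155 (-0.025) and Mir429 (-0.065). With no filter they were Mir145a (0.15), Mir200c (0.083) and Mir199a-2 (0.078), and Mir145a also turned with DESeq2 size factors (0.048) and with 100 or more reads in each library (0.066). Of these 7 genes, Mir375 and Mir29a were called in the main test. Without 1 library the fold of Mir7b over the copied genes was 12.6 or 12.8. Depth limits Mir7-2 most, with 103 reads in library 1.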

Other observations

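The symbols Mir7j and Mir7k in the tables belong to other miRNAs. Their mature strands are named let-7j and let-7k in RefSeq, and neither carries the miR-7 seed. Mir7j had 144 reads in library 1 and 284 in library 2, or 64.2 and 72.6 CPM, close to the level of Mir7-2, and Mir7k had 4 reads and 1 read. Counting the miR-7 family by the start of the symbol would have added them.

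The 5 detected genes nearest to Mir7-2 by level in both libraries were led by Mir138-1, with 116 reads in library 1 and 481 in library 2. Its log2 ratio between the libraries was 1.33, against 1.26 for Mir7-2, and closeness in both libraries makes the ratios alike by construction. The next were Mir32, Mir1193, Mir362 and Mir326, with log2 ratios from 0.32 to 0.82. Of the 5 nearest to Mir7-1, Mir18, Mir296, Mir339, Mir434 and Mir467e, the log2 ratios ran from 0.27 to 0.54. These genes were named after their values were seen, and no test was run on them.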
